A study of Mus musculus with 3 samples.

Results

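Among 19592 cells kept from 3 single-cell RNA sequencing libraries of the adult mouse lacrimal gland (LG), 87 cells (0.444%) passed a gate for monocytes. They were chosen by their own transcript counts. A member carried at least 2 unique molecular identifiers (UMIs, the counts of distinct RNA molecules) of *Plac8* and *Ccr2* together and at least 2 of *Lyz2*, *Clec4e* and *Cd14* together. It carried none of the dendritic cell (DC) genes *Cd209a* and *Fscn1*, none of the T and NK cell genes *Cd3d*, *Cd3e*, *Cd3g* and *Nkg7*, and none of *Epcam* and *Col1a1*. It also had at most 2 UMIs of the resident macrophage (Mφ) genes *Mrc1*, *Pf4*, *F13a1* and *Cd163*, and at most 1 of *Trem2* and *Gpnmb*. The values of these genes chose the members and are therefore given below as a description, with no test.

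The mice were of strain C57BL/6J and 2 months old, with no treatment or allele named in the labels. There was 1 female library and 2 male libraries, each pooled from 6 LGs of 3 animals, so that no value belongs to a single animal. The female library was prepared at one core, and both male ones at another core and on a different date. Sex, core and day of preparation therefore cannot be told apart. No test of sex was made on a single female library.

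Classical monocytes are made in the bone marrow and enter tissues from the blood by means of the chemokine receptor CCR2. In the mouse they are known by the surface protein Ly6C, by lysozyme and by S100 proteins, and in a tissue they can turn into macrophages or into cells that present antigen. The opsonin C1q is by contrast a product of mature tissue macrophages, and few classical monocytes of the blood carry its transcripts.

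Promoter sequences are shown for 4 of the 13 genes searched, all of them with a match to the letters below. They are *Ly6c2* and *Chil3*, genes of classical monocytes, *Lyz2*, a gene of the gate, and *C1qb*, a gene of Mφ. The gated cells split along these genes, and also along *Plac8* and *Apoe*, which held no match and are not shown. Each run gives the 250 bases before the transcription start in RefSeq, 5′ to 3′ on the strand of the gene. Capitals mark AGGAAGT or its reverse complement ACTTCCT, the core bound by the myeloid transcription factor PU.1.
*Ly6c2* (GRCm38.p6, chr15:75111972-75112221, minus strand): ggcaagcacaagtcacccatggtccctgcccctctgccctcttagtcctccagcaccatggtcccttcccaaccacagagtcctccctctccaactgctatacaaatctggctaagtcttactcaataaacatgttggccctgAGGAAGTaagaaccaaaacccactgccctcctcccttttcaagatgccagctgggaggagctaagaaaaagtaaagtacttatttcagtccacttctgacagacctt
*Lyz2* (GRCm38.p6, chr10:117282273-117282522, minus strand): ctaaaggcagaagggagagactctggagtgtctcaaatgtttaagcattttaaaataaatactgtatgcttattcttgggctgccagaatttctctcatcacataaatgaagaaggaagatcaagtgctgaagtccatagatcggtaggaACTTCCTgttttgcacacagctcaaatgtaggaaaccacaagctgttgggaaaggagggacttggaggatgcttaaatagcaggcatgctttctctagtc
*Chil3* (GRCm38.p6, chr3:106167565-106167814, minus strand): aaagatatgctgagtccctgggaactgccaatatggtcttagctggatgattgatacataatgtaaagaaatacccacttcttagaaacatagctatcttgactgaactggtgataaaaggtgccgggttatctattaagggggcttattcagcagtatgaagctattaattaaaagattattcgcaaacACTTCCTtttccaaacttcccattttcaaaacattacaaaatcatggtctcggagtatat
*C1qb* (GRCm38.p6, chr4:136886201-136886450, minus strand): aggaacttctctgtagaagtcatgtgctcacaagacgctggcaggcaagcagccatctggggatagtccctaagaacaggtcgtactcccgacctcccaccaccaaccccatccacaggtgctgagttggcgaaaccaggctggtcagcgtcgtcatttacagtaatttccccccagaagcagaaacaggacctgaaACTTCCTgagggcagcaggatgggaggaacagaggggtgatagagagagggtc
The core was searched for on both strands, and no other motif was searched for. It stood 107 bases before the start in *Ly6c2*, 100 in *Lyz2*, 60 in *Chil3* and 53 in *C1qb*. *C1qc* also held a match, and no match to these letters stood in the windows of *Plac8*, *Ccr2*, *Clec4e*, *S100a4*, *S100a6*, *Tmsb10*, *Cebpb* or *Apoe*. A window from another start of *Ly6c2* held 2 matches, and it overlaps the window shown, so that the match shown is counted in both. Thus 6 of the 19 windows of 13 genes held a match, beside 2525 (7.69%) of all 32851 windows of this length. The letters therefore stood before genes of both kinds, and a match is a description of the sequence and not a binding site.

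The members numbered 36 of 8298 kept female cells, 29 of 5582 in male library 1 and 22 of 5712 in male library 2. These are shares of 0.434% (0.304 to 0.600), 0.520% (0.348 to 0.745) and 0.385% (0.242 to 0.583), with exact 95% binomial intervals that cover counting error only. The 3 intervals overlapped. Median depth differed between the libraries, at 3981.5, 1693 and 1357 UMIs per member. Part of it was RNA of tear-product genes, which acinar cells express. Tear-product genes took 26.6, 50.1 and 66.4% of the members' summed UMIs in the same order, and 3 members of male library 2 held over 80% of such UMIs. All levels below are therefore CPM, the UMIs of a gene per 1000000 UMIs outside 121 tear-product genes, over sums of 118427, 24829 and 17952 UMIs. RNA free in the suspension would make up 38.7, 63.3 and 83.8% of the members' UMIs if all tear-product UMIs were free RNA. In male library 2 this pooled estimate rests in part on members with 10436, 10178 and 5111 UMIs, all marked as doublets. Their tear-product shares were 83.6, 84.6 and 82.5%, against a median of 47.3% per member. Fits with free RNA subtracted used shares pooled in the same way. By this estimate part of the UMIs outside tear-product genes was free RNA too, to an unlike degree between libraries. The CPM values are not corrected for it. Doublet scores marked 5, 2 and 4 members. Pairs of libraries shared 11, 17 and 11 barcodes among their kept cells.

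The label of monocytes went against the data in most of the female members, so that the cells are called monocyte-gated cells here. C1q transcripts (*C1qa*, *C1qb* and *C1qc* summed) exceeded 2 UMIs in 28 of 36 female members, which is 77.8% (exact interval 60.8 to 89.9). They did so in 2 of 29 members of male library 1 (6.90%, 0.846 to 22.8) and in 1 of 22 of male library 2 (4.55%, 0.115 to 22.8). In the female library the remaining 8 members held no C1q UMI at all, while the others held from 3 to 128, with a median of 32. Free RNA, measured in barcodes of 10 to 100 UMIs, would give 0.409, 0.0562 and 0.0941 C1q UMIs per member against 24.7, 0.966 and 0.773 counted. The gate chose members at full depth, and cells were thinned to 500 non-tear UMIs only afterwards. Thinning therefore cannot show how depth bore on which cells entered, and 40.0% of thinned female members kept a *Ccr2* UMI (88.9% unthinned). Among members already chosen the difference remained, at 80.0% of thinned female members and 11.1% and 13.6% of male members with a C1q UMI (77.8, 17.2 and 13.6% unthinned). Fibroblasts, which should lack C1q, had one in 1.38, 0 and 1.20% of thinned cells (4.02, 0 and 1.10% unthinned), where the 0 of 162 cells allows up to 1.85%. Their median depths were 3391.5, 1651 and 1452 UMIs.

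**Figure D1:**
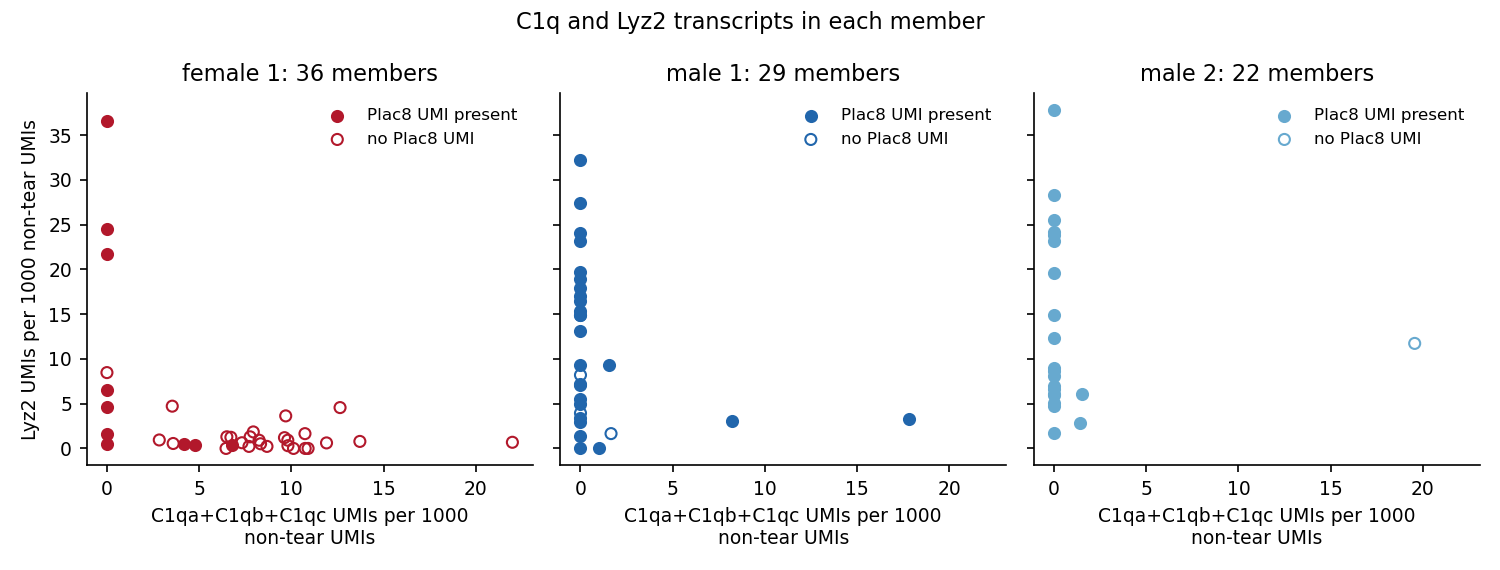
Each point is 1 member, in 1 panel per library. The horizontal axis gives C1q UMIs and the vertical axis *Lyz2* UMIs, both per 1000 non-tear UMIs, and filled points carry at least 1 *Plac8* UMI. Most female members lie along the horizontal axis with no *Plac8*, while most male members lie on the vertical axis at 0 C1q.

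The 2 kinds of member entered the gate by different genes. *Plac8*, which encodes a small cysteine-rich protein of myeloid cells, was present in 10 female, 26 male 1 and 21 male 2 members. The other 26, 3 and 1 members entered on *Ccr2* alone, and 25 of these 26 female cells carried over 2 C1q UMIs. *Lyz2*, the macrophage lysozyme, was present in 32, 27 and 22 members. *Cd14*, the co-receptor for lipopolysaccharide, was present in 24, 6 and 2, and *Clec4e*, the C-type lectin Mincle, in 3, 11 and 8. *Plac8* alone is a weak marker in these libraries, since 24.2, 34.6 and 19.3% of thinned fibroblasts carried it against 14.3, 74.1 and 86.4% of thinned members (unthinned, 65.2, 47.2 and 31.9% of fibroblasts and 27.8, 89.7 and 95.5% of members). Of the cells just inside it, with 2 UMIs of *Plac8* and *Ccr2*, 15 of 16, 2 of 13 and 1 of 5 carried over 2 C1q UMIs. Just outside it, with 1 UMI, 43 of 47, 14 of 28 and 7 of 21 did.

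Because of this, counts of calls are given with and without the female library, named calls that were lost without it are marked, and members with at most 2 C1q UMIs (8, 27 and 21 cells, here C1q-low members) are described apart. That split was chosen after the values had been seen and carries no test. The C1q-low members were 0.0964% (0.0416 to 0.190), 0.484% (0.319 to 0.703) and 0.368% (0.228 to 0.561) of kept cells, so the female interval lay below both male intervals.

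**Figure D2:**
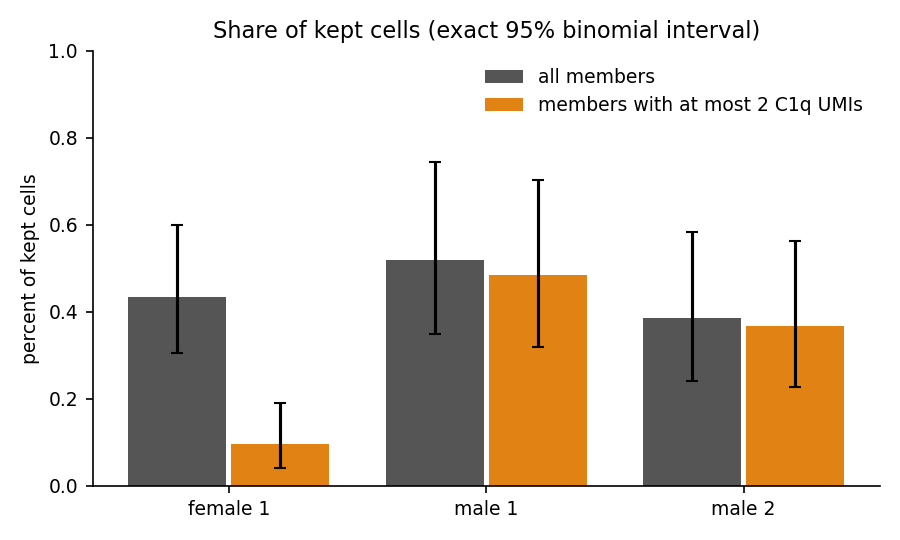
Bars give members as a percent of kept cells in each library, for all members and for C1q-low members, with exact 95% binomial intervals. The grey bars overlap between libraries, and the orange bar of the female library lies below those of the male libraries.

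The C1q-low members were described gene by gene. *Plac8* and *Lyz2* belong to the gate, and their levels here are set in part by it. *Plac8* stood at 3446, 3659 and 3549.6 CPM in the order female, male 1 and male 2, and *Lyz2* at 11836, 10715 and 11929, where 3 of the 8 female cells held 79, 70 and 55 of the 237 female UMIs. *Ly6c2*, which encodes the monocyte surface protein Ly6C2, stood at 1099, 2004 and 2735, and *S100a4*, a calcium-binding protein of motile cells, at 1199, 2352 and 1804. *Tmsb10*, an actin-sequestering thymosin, stood at 2347, 2526 and 2386. *Chil3* stood at 1249, 218 and 58.2. Of the genes outside the gate, *Tmsb10* was alike in the 3 libraries, *Ly6c2* and *S100a4* were lowest in the 8 female cells, and *Chil3* was highest there. In these 8 cells, 16 of 22 *Ly6c2* UMIs lay in 1 cell marked as a doublet, and 19 of 25 *Chil3* UMIs in 1 cell. The 28 C1q-bearing female members stood lower in most of these genes. *Plac8* stood at 61.0, *Lyz2* at 935, *S100a4* at 71.1 and *Ly6c2* at 10.2 CPM, the last from 1 UMI. *Apoe*, the lipid carrier abundant in tissue Mφ, stood at 15955 against 1598 in the C1q-low members of the same library. *Ms4a7*, a membrane protein of Mφ, stood at 884 against a level from 0 UMIs.

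**Figure D3:**
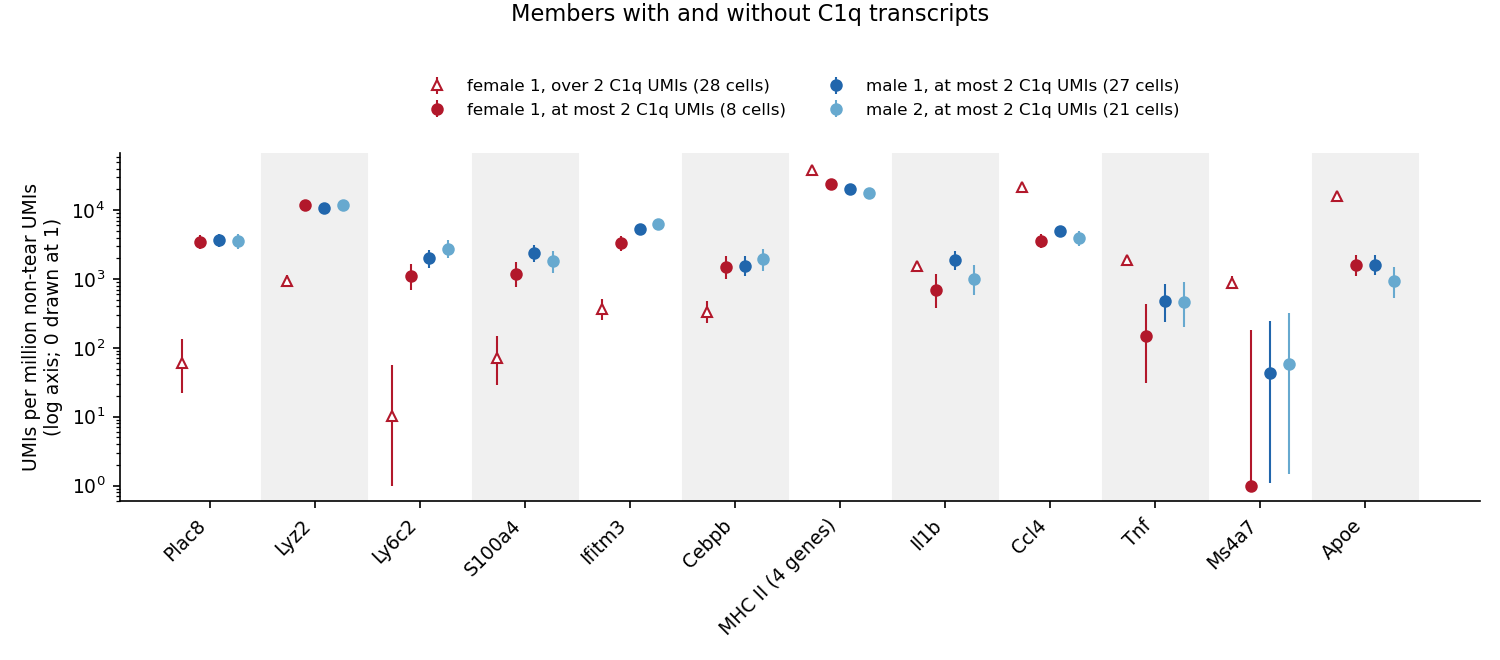
Points give the summed level of each gene in CPM (log axis, 0 drawn at 1) with the exact 95% Poisson interval of the count, which covers counting error only. Open triangles are the 28 female members with over 2 C1q UMIs, and filled circles are C1q-low members of each library. The triangles lie below the circles from *Plac8* to *Cebpb* and above them for *Ccl4*, *Tnf* and the Mφ genes.

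Inflammatory transcripts were compared within the female library and with the male C1q-low members. In the C1q-bearing female members, *Ccl4*, a chemokine that attracts monocytes and T cells, stood at 21442 CPM, *Ccl3*, its close relative, at 8160.2 and *Tnf*, the cytokine TNF, at 1859.7. In the C1q-low members *Ccl4* stood at 3596, 4922 and 3899, *Ccl3* at 1249, 2569.8 and 1746 and *Tnf* at 149.8, 479 and 466. *Cxcl2* stood at 3699 in the C1q-bearing female members against 449, 4225 and 2153, and *Il1b* at 1545 against 699, 1873 and 989. Within the female library each of these genes was thus higher in the C1q-bearing members. For *Cxcl2* and *Il1b* that level lay between the values of the male C1q-low members. Those come from libraries that also differ in sex, core, day and depth. MHC class II transcripts (*H2-Aa*, *H2-Ab1*, *H2-Eb1* and *Cd74*, for presentation of peptides to CD4 T cells) were present in both kinds. Their sum stood at 37915 CPM in the C1q-bearing female members and at 23623, 20297 and 17457 in the C1q-low ones. *Ifnb1*, which encodes interferon beta, was counted 61 times in 20 female members, all of them C1q-bearing, and not in the male members, where 0 UMIs allow up to 121 and 167 CPM.

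Within the C1q-low members, MHC class II was compared between cells with and without *Ly6c2*. In the 4 female cells with *Ly6c2* the median MHC class II count was 0.930 per 1000 non-tear UMIs (0 to 1.97). In the male libraries it was 15.5 (0 to 63.1, 14 cells) and 21.01 (0 to 54.6, 16 cells). The cells without *Ly6c2* had medians of 37.2 (4 cells), 22.4 (13 cells) and 0 (5 cells). In the female library and male library 1 the median was thus lower with *Ly6c2*, and in male library 2 it was higher. Among the 5 cells of male library 2, those with 83.6, 74.2 and 84.6% tear-product UMIs were marked as doublets. They held 0, 5 and 0 MHC class II UMIs. Their part in the order in that library was not tested.

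Genes of classical monocytes that the gate did not use were checked next. *Ly6c2* was present in 5 of 36, 16 of 29 and 16 of 22 members, and in 11.4 (exact interval 3.20 to 26.7), 59.3 (38.8 to 77.6) and 59.1% (36.4 to 79.3) of members thinned to 500 UMIs. No thinned fibroblast carried it, of 1089, 162 and 83 cells, which allows shares of up to 0.275, 1.85 and 3.61%. Free RNA would give 0, 0.0141 and 0.0118 *Ly6c2* UMIs per member against 0.639, 1.76 and 2.14 counted. *Ly6c2* and *Ly6c1* are nearly identical in sequence, so that reads could have been split between them. *Ly6c1* gave 3, 3 and 0 UMIs in the members. *Chil3*, a chitinase-like secreted protein of monocytes, gave 25, 5 and 1 UMIs, all in C1q-low members, and 19 of the 25 lay in 1 cell. These 31 UMIs were most of the 35 in all kept cells.

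Markers of other cells were counted in full. The classical monocyte list was detected in 18 of 18 genes and stood at 2136, 8699.5 and 8634 CPM in the 3 libraries. The same list stood at 4384, 4506 and 6022 in *Cd209a* DCs and at 5759, 6819 and 5777 in fibroblasts, so that the female members lay below both. The patrolling monocyte list was detected in 9 of 14 genes, at 1562, 2135 and 2562 CPM. *Cebpb*, a gene of this list that is not particular to patrolling monocytes, gave 63, 40 and 33 of its 185, 53 and 46 UMIs. *Treml4*, *Pglyrp1*, *Ear2*, *Fabp4* and *Cd300e* gave no UMI, and *Cx3cr1*, the fractalkine receptor, gave 38, 1 and 2. Of 12 neutrophil genes 4 were detected, at 84.4, 282 and 279 CPM in sum, with *S100a8*, *S100a9*, *Retnlg*, *Cxcr2* and *Ly6g* at 0. B cell genes (1 of 4 detected) summed to at most 1 UMI in a library and T and NK cell genes outside the gate (2 of 7 detected) to at most 2. The conventional DC list (11 of 12 detected) stood at 481, 362 and 947 CPM and the plasmacytoid DC list (3 of 5 detected) at 489.8, 806 and 613. Mast cell genes (2 of 3) and fibroblast genes (5 of 5) summed to 22 and 62 UMIs in the female library and to at most 2 UMIs in a male library. One female member held all 137 UMIs of the mast cell protease *Mcpt2* and all 17 of *Cpa3*, and another held 41 of 45 UMIs of the fibroblast gene *Dcn*. The part of such cells in the results was not tested. Epithelium genes (2 of 5 detected) summed to 10, 9 and 13 UMIs, at 84.4, 362 and 724 CPM, and endothelium genes (4 of 4) to 5, 6 and 0 UMIs. The Mφ list (14 of 15 detected) stood at 24825, 4793 and 4011 CPM. Cell cycle genes (5 of 10 detected) summed to 9, 5 and 0 UMIs.

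For comparisons, UMIs were summed per library and gate and tested in pairs within libraries with edgeR's quasi-likelihood test. Genes under an adjusted p of 0.05 (Benjamini-Hochberg, over all genes tested) are called. The gates compared were resident Mφ (79 cells with at least 4 UMIs of *Mrc1*, *Pf4*, *F13a1* and *Cd163*), C1q Mφ (823 cells with at least 10 C1q UMIs and at most 2 of those 4 genes) and *Cd209a* DCs (59 cells with at least 2 UMIs of *Cd209a*). Gate genes of either side were in no test. The 3 comparisons share the monocyte-gated sums, and the Mφ gates admitted at most 1 UMI of *Plac8* and *Ccr2*.

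Against C1q Mφ, the monocyte-gated cells carried more of *Ly6c2*, *S100a4*, *S100a6*, *S100a10*, *Tmsb10*, *Ifitm2* and *Ifitm3* and less of *Apoe*, *Il1a* and ferritin, and these calls held without the female library. Of 1271 genes tested, 20 were higher (1.57%) and 9 lower (0.708%). The median log2 difference of all genes tested was -0.02. Without the female library, 18 of 863 genes were higher (2.09%) and 24 lower (2.78%), of which 14 and 6 were among the first calls. Without male library 1, 6 were higher and 0 lower, with 51 lower at an unadjusted p under 0.05. With no library block 2 of 20 named genes kept their calls, and with free RNA subtracted 9 of 17.

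*Ly6c2* stood at 194, 2054 and 2618 CPM in monocyte-gated cells and rested on 1, 1 and 0 UMIs in C1q Mφ. The ratio was 339 (exact interval 55.0 to 13948) for female cells and 386 (66.3 to 15551) for male library 1, while for male library 2 the level was at least 89.6-fold higher. The log2 fold change was 8.41 ± 0.46 (SE, edgeR's quasi-likelihood test, adjusted p = 1.21e-05). *S100a4* stood at 262, 2215 and 1727 against 8.03, 10.6 and 19.5, a log2 fold change of 5.83 ± 0.45 (edgeR, adjusted p = 9.32e-05). *S100a6*, another calcium-binding protein, stood at 312, 1732 and 1393 against 31.5, 63.8 and 87.6, a log2 fold change of 3.79 ± 0.35 (edgeR, adjusted p = 0.000324). In both genes the female value was the lowest of the monocyte-gated values. *Tmsb10* stood at 667, 2537 and 2284 against 126, 223 and 292, and its log2 fold change was 2.78 ± 0.26 (edgeR, adjusted p = 0.000324).

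Of the 18 classical monocyte genes, 5 were tested and 3 rose (*Ly6c2*, *S100a4*, *S100a6*), with a median log2 difference of 3.79. Of 11 S100 and annexin genes, 7 were tested and 4 rose, the others being *S100a10* (log2 3.17 ± 0.37), which binds annexin A2 at the membrane, and *Anxa2* itself (2.01 ± 0.39). The call for *Anxa2* was lost without the female library (edgeR, adjusted p = 0.125). Of 18 interferon-stimulated genes, 14 were tested and 4 rose: *Ifitm2* (2.80 ± 0.35) and *Ifitm3* (2.36 ± 0.32), which encode membrane proteins that hinder virus entry, *Ifi27l2a* (1.63 ± 0.29) and *Ms4a4c* (2.62 ± 0.50). The median of these 14 was 0.50. *Ifitm3* stood at 861, 5397 and 5960.3 CPM against 326, 558 and 799, and fibroblasts carried it in 74.8, 81.5 and 73.5% of thinned cells. *Cebpb*, the transcription factor C/EBPβ of monocytes and granulocytes, rose by 1.52 ± 0.21, from 186, 489 and 545 to 532, 1611 and 1838 CPM, as did *Klf2* (1.63 ± 0.32) among 15 transcription factors tested. The call for *Klf2* was lost without the female library (edgeR, adjusted p = 0.137). *Ly6a* (2.95 ± 0.32), which encodes Sca-1, *Ahnak* (2.93 ± 0.43) and *Napsa* (2.19 ± 0.36), an aspartic protease, also rose, and the call for *Napsa* was lost without the female library (edgeR, adjusted p = 0.0663).

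Among the genes that fell, *Apoe* stood at 13527, 1732 and 2005 CPM against 26655, 25776 and 29584 in C1q Mφ, a log2 fold change of -2.94 ± 0.54 (edgeR, adjusted p = 0.0206). The female value was the one nearest to the Mφ values, and without that library the fold change was -4.09 ± 0.20. *Il1a*, the cytokine interleukin 1α, stood at 42.2, 0 and 0 against 249.5, 505 and 428, and *Mmp12*, the macrophage elastase, at 50.7, 0 and 0 against 341, 441 and 282. *Zmynd15* gave a log2 fold change of -2.91 ± 0.59. In all 3 genes the male members held no UMI, so the fitted values without the female library depend on the prior count. *Ctsd* (-1.98 ± 0.38) encodes the lysosomal protease cathepsin D and was the only one of 16 lysosome genes tested that was called lower. The ferritin genes *Ftl1* (-1.08 ± 0.22) and *Fth1* (-0.84 ± 0.18), which store iron, *Bcl2a1b* (-1.68 ± 0.35), an inhibitor of apoptosis, and *Cd83* (-1.40 ± 0.28) fell as well. The calls for *Mmp12*, *Zmynd15* and *Cd83* were lost without the female library (edgeR, adjusted p = 0.0579, 0.0860 and 0.0663). Of 23 inflammatory cytokines and chemokines 19 were tested, and 1 rose (*Osm*, oncostatin M, 1.88 ± 0.33) and 1 fell (*Il1a*). Without the female library the call for *Osm* was lost (edgeR, adjusted p = 0.0999), and 7 fell, among them *Tnf* (-2.38 ± 0.25, edgeR, adjusted p = 0.0119) and *Ccl4* (-2.08 ± 0.18, edgeR, adjusted p = 0.00649), whose female values of 1571 and 18425 CPM lay near the 1839.5 and 21489 of C1q Mφ in that library.

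**Figure D4:**
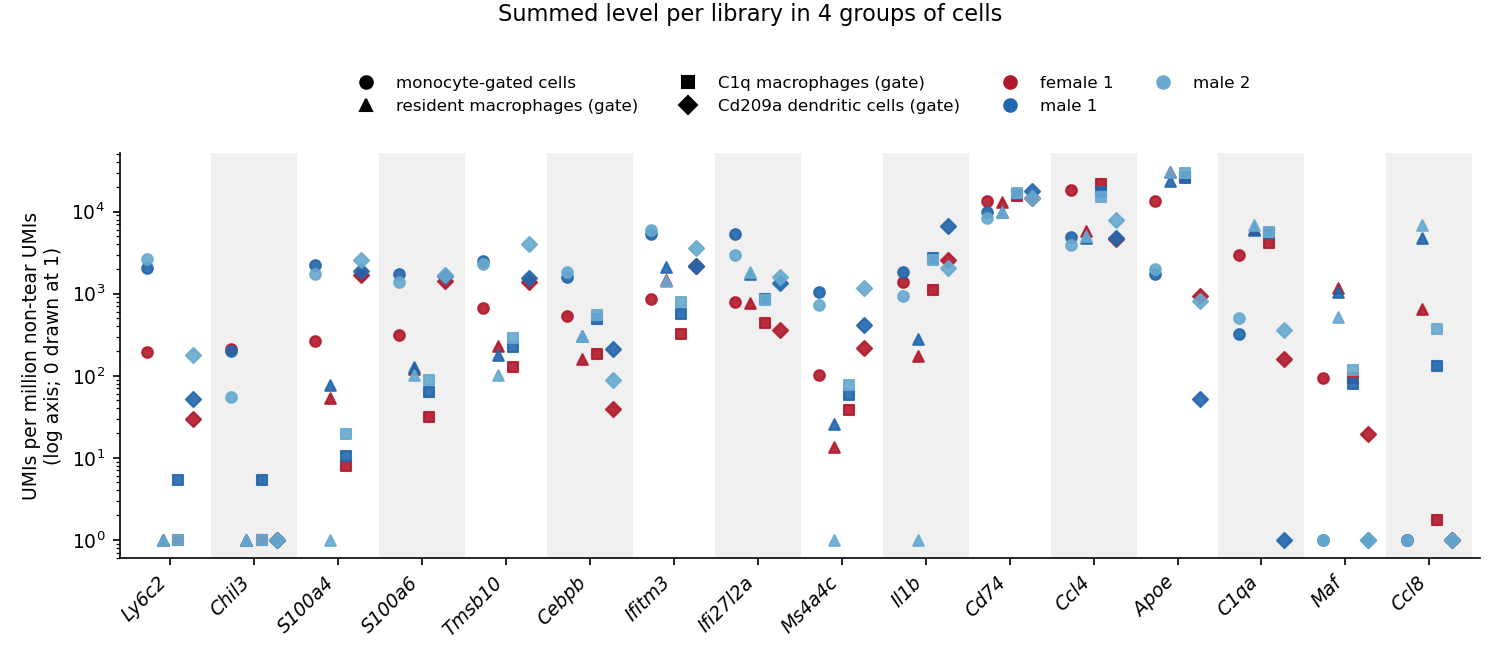
Summed levels of 16 genes in CPM (log axis, 0 drawn at 1), for monocyte-gated cells (circles), resident Mφ (triangles), C1q Mφ (squares) and *Cd209a* DCs (diamonds). Colors mark the library. The red female circles lie nearer to the Mφ squares than the blue male circles do for *Ly6c2*, *S100a4*, *S100a6*, *Ifitm3*, *Ccl4*, *Apoe* and *C1qa*.

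Against resident Mφ, the monocyte-gated cells carried less of *Ccl8*, *Maf*, *Adgre1*, *Selenop* and *Apoe* and more of *Lsp1*, *Il1b*, *Tmsb10* and *Cebpb*. Of 422 genes tested, 5 were higher (1.18%) and 17 lower (4.03%), around a median of -0.02. Without the female library, 19 of 325 were higher (5.85%) and 40 lower (12.3%), and 5 and 16 of these were among the first calls. The calls rested on both male libraries: edgeR gave 0 calls when male library 1 was left out, with 35 higher and 61 lower at an unadjusted p under 0.05, and 0 when male library 2 was left out, with 47 and 82. On total UMIs in place of the TMM scaling, 16 were higher and 19 lower, with the median of all genes moved by 0.19. With free RNA subtracted, 2 of the 12 named genes tested kept their calls.

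*Ccl8*, a chemokine that marks resident Mφ of many tissues, gave no UMI in any member. In resident Mφ it stood at 644, 4744 and 6914 CPM, at least 25.4-, 39.3- and 41.4-fold higher when 3 counts per library are taken as the floor (edgeR's quasi-likelihood test, adjusted p = 0.00404). *Maf*, a transcription factor of mature Mφ, stood at 92.9, 0 and 0 against 1167, 1051 and 516 (log2 fold change -4.39 ± 0.63, edgeR, adjusted p = 0.0198). *Adgre1*, which encodes the Mφ marker F4/80, stood at 152, 0 and 55.7 against 832, 744 and 826 (-3.28 ± 0.59, edgeR, adjusted p = 0.032). Among the members of the 3 libraries, the female ones held the most *Maf* and *Adgre1*. *Selenop*, a selenium carrier, fell by 3.19 ± 0.29 on the log2 scale, *Apoe* by 3.06 ± 0.59, *Timp2*, an inhibitor of matrix proteases, by 3.03 ± 0.64, *Ccl7*, a ligand of CCR2, by 3.01 ± 0.56 and *Ctsd* by 3.00 ± 0.48.

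Of 15 Mφ genes, 12 were tested and 3 fell (*Adgre1*, *Apoe*, *Maf*), with a median of -2.14. Without the female library 10 were tested and 8 fell, with a median of -3.92. *C1qa* was among the added calls, at 2930.1, 322 and 501 CPM against 6078, 6051 and 6811 (edgeR, adjusted p = 0.0504 with the female library and 1.30e-06 without). Of 16 lysosome genes 13 were tested, and *Ctsd* and *Ctsb*, which encode the proteases cathepsin D and B, fell, as did *Ftl1* and *Blvrb*, an enzyme of heme breakdown, among 3 iron genes tested. *Lsp1*, an actin-binding protein of leukocytes, stood at 338, 806 and 501 against 40.3, 25.6 and 103 (3.30 ± 0.56, edgeR, adjusted p = 0.0318). *Il1b*, the cytokine interleukin 1β, stood at 1402, 1853 and 947 against 174, 282 and 0 (2.84 ± 0.42, edgeR, adjusted p = 0.021). Both genes were named because they were called with 1 direction in all 3 libraries, so the order of the libraries is no further result. *Tmsb10* rose by 2.62 ± 0.54, *Cebpb* by 1.97 ± 0.35 and *Pim1*, a serine/threonine kinase, by 1.85 ± 0.39. Of 18 interferon-stimulated genes 5 were tested, and *Ifitm3* and *Ifi27l2a* missed the threshold in the 3 libraries (edgeR, adjusted p = 0.513 and 0.274). In the male libraries alone 4 of 7 tested rose, including *Ifitm3* (1.39 ± 0.26, edgeR, adjusted p = 0.00214) and *Ifi27l2a* (1.13 ± 0.27, edgeR, adjusted p = 0.0103).

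**Figure D5:**
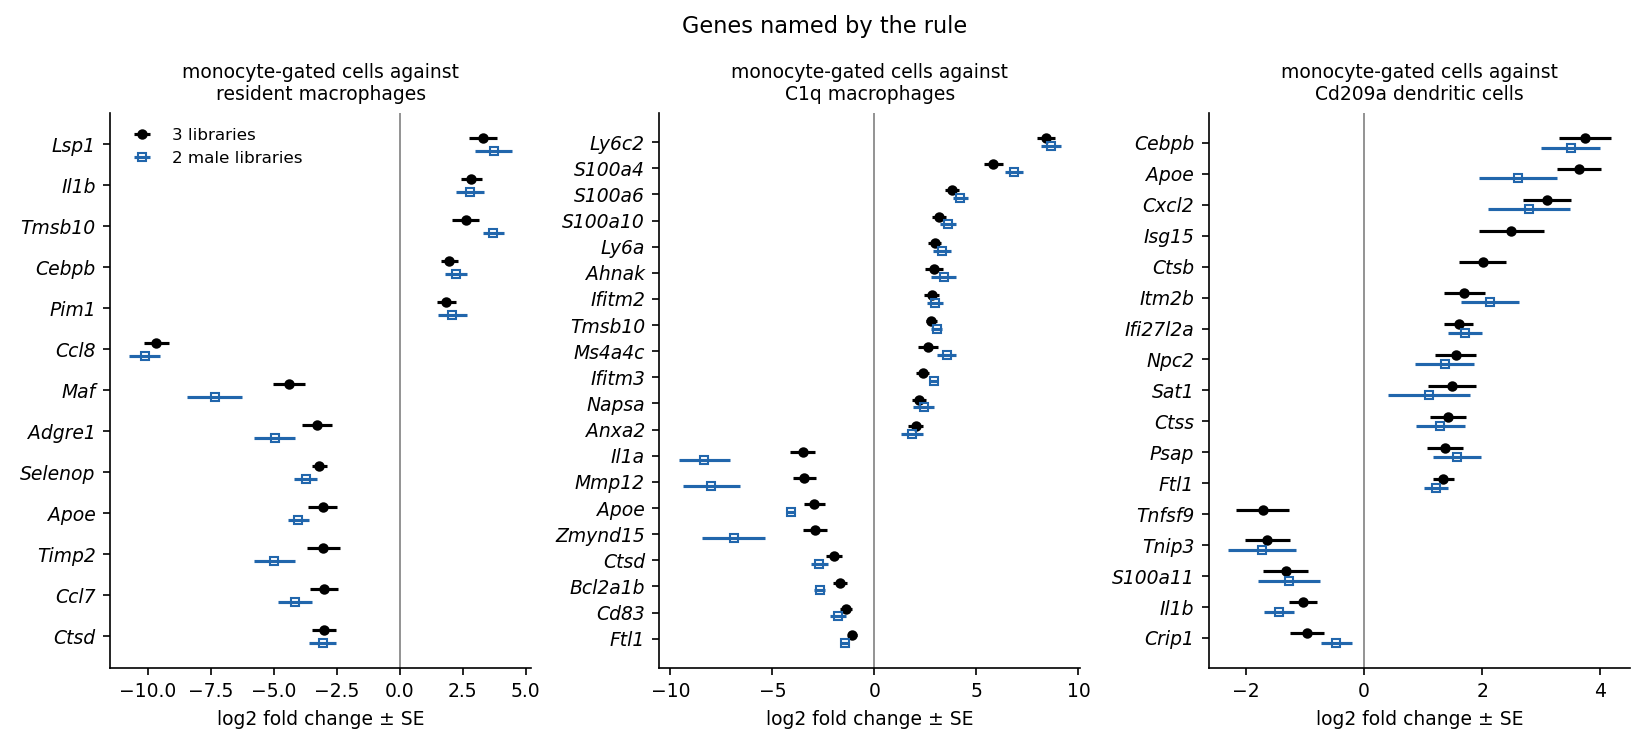
Log2 fold changes with SE from edgeR for the genes named by rule in each comparison, from 3 libraries (black) and from the 2 male libraries (blue). Values of *Ccl8*, and of *Maf*, *Il1a*, *Mmp12* and *Zmynd15* without the female library, rest on 0 UMIs in the members and depend on the prior count. No named gene changes sign between the fits.

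Against *Cd209a* DCs, the monocyte-gated cells carried more of *Cebpb*, *Ifi27l2a* and the ferritin transcripts *Ftl1* and *Fth1* and less of *Il1b*, with and without the female library. Of 284 genes tested, 21 were higher (7.39%) and 5 lower (1.76%), around a median of 0.02. Without the female library, 6 of 265 were higher (2.26%) and 3 lower (1.13%), of which 4 and 1 were among the first calls. Without male library 1, 54 were higher and 27 lower, and without male library 2, 60 and 18. On total UMIs, 15 were higher and 21 lower, with the median of all genes moved by -0.24, so the balance of the directions depended on the scaling. All 17 named calls were lost with free RNA subtracted, and likewise with no library block.

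*Cebpb* stood at 532, 1611 and 1838 CPM against 39.5, 209.6 and 89.9, from 4, 4 and 1 UMIs in the DCs, with a log2 fold change of 3.73 ± 0.44 (edgeR, adjusted p = 6.51e-05). *Cebpb* was called higher in each of the 3 comparisons, which share the monocyte-gated sums. It was named here because it had 1 direction in all 3 libraries, so that agreement is no further result. *Apoe* rose by 3.64 ± 0.38 and *Cxcl2*, a chemokine for neutrophils, by 3.09 ± 0.41, but both missed the threshold in the male libraries (edgeR, adjusted p = 0.081 for each). Of 16 lysosome genes 6 were tested and 4 rose, *Ctsb* (2.01 ± 0.40), *Npc2* (1.55 ± 0.35), *Ctss* (1.42 ± 0.30) and *Psap* (1.36 ± 0.30), around a list median of 1.39. In the male libraries alone *Ctsb* was not tested, and *Ctss*, *Psap* and *Npc2* missed the threshold (edgeR, adjusted p = 0.178, 0.0903 and 0.192). *Ftl1* (1.34 ± 0.18) and *Ifi27l2a* (1.60 ± 0.25) rose in both fits, and *Isg15*, a ubiquitin-like protein induced by interferon, rose by 2.49 ± 0.55. *Itm2b* (1.70 ± 0.35) and *Sat1* (1.49 ± 0.40), an enzyme of polyamine breakdown, were the other named genes that rose. In the male libraries alone *Isg15* was not tested, and *Itm2b* and *Sat1* lost their calls (edgeR, adjusted p = 0.0744 and 0.428).

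*Il1b* was lower than in the DCs, at 1402, 1853 and 947 CPM against 2587, 6654 and 2067, a log2 fold change of -1.04 ± 0.23 (edgeR, adjusted p = 0.00874). The order was the same in every library, as the choice of named genes required. The call held in the male libraries (-1.45 ± 0.26, edgeR, adjusted p = 0.0394). *Tnfsf9* (-1.72 ± 0.45), the ligand of 4-1BB, *Tnip3* (-1.64 ± 0.38), an inhibitor of NF-κB signaling, *S100a11* (-1.33 ± 0.38) and *Crip1* (-0.96 ± 0.29) were lower in the 3 libraries. In the fit without female cells *Tnfsf9* was not tested, and *Tnip3*, *S100a11* and *Crip1* lost their calls (edgeR, adjusted p = 0.178, 0.238 and 0.371). *S100a4* stood at 1698, 1886 and 2607 in the DCs and did not pass the test (edgeR, adjusted p = 0.261). *Ly6c2* rested on 3, 1 and 2 UMIs in the DCs. The *Ly6c2* ratio to DCs was 6.56 (1.98 to 34.1), 39.2 (6.73 to 1578) and 14.6 (3.81 to 124). Of 11 MHC class II genes 7 were tested, and 1, the protease *Ctss*, was called, higher. In the male libraries *H2-Ab1* (-0.87 ± 0.16, edgeR, adjusted p = 0.0421) and *H2-Eb1* (-1.07 ± 0.19, edgeR, adjusted p = 0.0404) were lower.

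Between the sexes, 629 genes had at least 30 UMIs summed over the 3 libraries. Of these, 58 (9.22%) were at least 2 times higher in the female members than in both male libraries. Another 61 (9.7%) were at most as high as the lower male value divided by 2. These are counts of size with no test. The female members gave 118427 UMIs against 24829 and 17952, so a gene could pass the filter on the female library alone. *Ifnb1*, at 61, 0 and 0 UMIs, did so, as did *Axl*, *Ifit1* and *Ccl12*, at 37, 37 and 34 female UMIs and 0 male UMIs. The filter therefore set part of the count of higher genes. Lower in the female library were 4 of 6 classical monocyte genes measured at that depth (*Ly6c2*, *S100a4*, *S100a6*, *Ms4a6c*) and 6 of 9 interferon-stimulated genes. *Irf7*, a transcription factor of the interferon response, stood at 76.0, 644 and 557 CPM. Higher were 7 of 10 Mφ genes (among them *C1qa*, *C1qb*, *C1qc*, *Apoe*, *Ms4a7* and *Cd81*), 5 of 12 cytokines and chemokines (*Tnf*, *Ccl3*, *Ccl4*, *Ccl12*, *Cxcl10*) and the interferon-stimulated *Ifit1* and *Ifit2*. The list of interferon-stimulated genes thus went both ways by this measure. *Axl*, a receptor for dying cells, stood at 312, 0 and 0, *Ifit1* at 312, 0 and 0 and *Ccl12* at 287, 0 and 0 CPM. The 0 male UMIs allow up to 121 and 167 CPM. A 2-fold difference from male library 2 is therefore not shown for *Axl*, *Ifit1* and *Ccl12*. These lists differed between the female and the male libraries, and so did the share of C1q-bearing members, the core, the day and the depth. Which of these bore on the lists was not tested. Among C1q-low members alone, 14 of 275 genes with enough UMIs were higher and 23 lower by the same measure. Fewer genes reached 30 UMIs there, so these counts cannot be set directly beside those of all members.

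Some of the largest differences lay in gland genes that every cell type of a library carried. *Gm14743* stood at 19480, 242 and 613 CPM in the members and at 18508, 495 and 918 in fibroblasts, and *Wfdc12*, a secreted antiprotease, at 50.7, 6847 and 9581 against 92.8, 5317 and 11874. The members therefore held them much as fibroblasts of the same library did. *Xist*, the RNA of the inactive X chromosome, gave 136, 0 and 0 UMIs and the Y-linked *Ddx3y* 0, 1 and 1, on the side of the labels.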

How the data were processed

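The deposited values are raw UMI counts per gene and barcode, which the authors made with Cell Ranger 6.1.2 on mm10 per the submitters' processing notes, in 3 filtered 10x matrices (9737, 6422 and 6899 called barcodes with 63066640, 40609390 and 44661762 UMIs). Here, barcodes with over 500 UMIs, over 200 genes and under 15% mitochondrial UMIs were kept. Doublets were marked with scanpy 1.11.5 and left in. The members and gene lists were chosen with earlier results of these data known. Counts were summed per library and gate, without gate genes and 121 tear-product genes. They were fitted with edgeR 4.0.16 in R 4.3.3 (filterByExpr, TMM, library as a block, quasi-likelihood test, Benjamini-Hochberg adjustment over all genes tested), because both gates come from the same pool. The libraries are separate pools of animals. DESeq2 1.42.0 was an alternative, and the code was tested on simulated data. Genes named were the 12 called higher and 8 called lower with the largest fold change among those with at least 50 UMIs and 1 direction in all 3 libraries, besides list members, gate genes and sex-linked genes. For female against male, the 10 largest ratios each way were taken. Intervals and floors of 3 counts cover counting error only. Other scalings, filters, gates, the block, doublets, free RNA and each left-out library were tried. Promoters are from RefSeq on GRCm38.p6, the build of mm10. Results for some list members are not reported here.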

Additional observations from a re-analysis of the deposited data

Results flagged for a closer look

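In 7 list sums, a minority of those compared, the female library lay on one side of the compared cells and both male libraries on the other. All are log2 ratios of the summed level in monocyte-gated cells over the compared cells, and the difference between the sexes was not tested, since there was 1 female library. Over *Cd209a* DCs, the classical monocyte list stood at -1.04 in the female library and at 0.95 and 0.52 in male libraries 1 and 2. The plasmacytoid DC list stood at -0.43 against 0.94 and 0.45 over the same cells. Inflammatory cytokines and chemokines stood at 1.33 against -0.41 and -0.90 over resident Mφ, and at 1.70 against -0.04 and -0.53 over *Cd209a* DCs. Interferon-stimulated genes stood at -0.38 against 1.12 and 1.08 over resident Mφ. Over C1q Mφ, transcription factors stood at 0.029 against -0.08 and -0.03, and dissociation and immediate early genes at -0.029 against 0.05 and 0.33. Apart from the last value, these ratios lay near 0. The share of members with over 2 C1q UMIs was 77.8% in the female library and 6.90 and 4.55% in the male libraries. Core, day and depth also differed between the female and the male libraries. The part of any of these in the list sums was not tested.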

How the results depend on the processing

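Of 721 values of named genes under alternatives, 549 kept direction and call, 172 lost the call and 0 turned. Named genes had been chosen for a call and 1 direction in all 3 libraries, so a turn was unlikely from the start. Counts of calls moved more. The cause was not tested. Against resident Mφ (5 higher, 17 lower), they were 8 and 29 with DESeq2 size factors, 16 higher on total UMIs (45.7% of calls higher in place of 22.7%), 21 and 35 with no filter, 3 and 11 with no library block, 9 and 33 under 5% mitochondrial UMIs, 26 lower over 1000 UMIs, 11 and 40 without doublets, 0 (26 unadjusted) and 5 with free RNA subtracted, 9 and 32 with at least 3 UMIs for both positive clauses of the gate (the stricter gate), 11 and 35 with tear-product genes, and 0 to 19 and 0 to 40 when a library was left out. Against C1q Mφ (20 and 9), they were 18 lower by DESeq2, 43 lower with no filter, 3 and 0 (61 unadjusted, edgeR) with no library block, 16 lower under 5% mitochondrial UMIs, 5 lower over 1000 UMIs, 25 lower without doublets, 12 and 2 with free RNA subtracted, 32 and 48 with the stricter gate, and 6 to 27 and 0 to 24 when a library was left out. Against DCs (21 and 5), they were 21 lower on total UMIs (41.7% higher in place of 80.8%), 10 and 0 (7 unadjusted) by DESeq2, 58 and 13 with no filter, 0 and 0 (22 and 11 unadjusted, edgeR) with no library block, 1 lower without doublets, 0 and 0 (24 and 11 unadjusted, edgeR) with free RNA subtracted, 7 and 0 (16 unadjusted, edgeR) with the stricter gate, and 6 to 60 and 3 to 27 when a library was left out. Total UMIs moved the median of all genes by 0.19, 0.12 and -0.24. Keeping only C1q-low members, chosen after seeing the data, gave 33 and 55 calls against resident Mφ, 54 and 91 against C1q Mφ and 14 and 5 against DCs, where 9 of 15 named genes kept their calls. Of female and male members (58 higher, 61 lower), it gave 14 and 23 of 275 in place of 629 genes, the stricter gate 31 and 36, tear-product genes 155 and 39, and at least 60 UMIs 36 and 31. The stricter gate gave 0.193% of kept female cells and 0.251% of male 1 cells, and C1q-low members 0.0964% of female cells.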

Other observations

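*Ifnb1* stood at 650 CPM in C1q Mφ of the female library and at 308 and 224 in the male libraries, from 1133, 58 and 23 UMIs. In the female members it stood at 515 CPM, and in fibroblasts of that library at 7.06. *Cxcl10*, an interferon-inducible chemokine, gave 230, 8 and 9 UMIs in the members, of which 225 of the 230 lay in C1q-bearing cells. *Ly6c2* was not particular to the members over all kept cells, which held 873 UMIs of it against 121 in the members. *Ptprc*, the leukocyte gene CD45, was found in 30, 8 and 7 members, whose median non-tear depths were 3262, 874 and 714.5 UMIs.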
